A study of Mus musculus with 16 samples.

Results

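The contractile machinery of the detrusor, the smooth muscle layer that empties the bladder, was followed through 33 genes in the bladders of mature and aged mice. These genes encode the smooth muscle forms of actin and myosin, the proteins that bind and anchor them, and the factors that switch their transcription on. They were chosen by name. A gene was included when its probe carried an accession of the listed symbol and was well above the array background on at least 4 of the 16 arrays, and all 33 genes met this, out of 26781 genes tested (transcripts of the array design without a matched name included). They had 56 probes on the array, all of which passed, and 14 of the genes had more than 1 passing probe. The probes closest to the limit were the pair for Ppp1r12b, which were above background on 9 and 14 arrays, whereas every other probe was above background on all 16.

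RNA came from the dissected bladder body of C57BL/6 mice of both sexes that were 12 months old (MAT) or 27 to 30 months old (AGED). Each array held the RNA of 1 bladder, with 4 arrays for each age of each sex, and the labels name no treatment and no altered gene. The bladder body holds urothelium, connective tissue, vessels and nerves beside the detrusor. In such tissue, fewer muscle cells and less RNA per muscle cell cannot be told apart. The question was whether the genes behind contraction differed with age in either sex.

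Smooth muscle contracts when calcium entering the cell or leaving its stores binds calmodulin, which activates myosin light chain kinase. The kinase phosphorylates the regulatory light chain of myosin, so that myosin can pull on actin filaments, and myosin phosphatase reverses the step. The filaments are anchored at dense bodies inside the cell and at dense plaques in its membrane, and a large share of these genes is switched on by serum response factor together with myocardin through a promoter element called the CArG box.

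This element was searched in the 250 bases before and 50 bases after each transcription start, from RefSeq promoter sequences of build GRCm38.p6. A window was found for 29 of the 33 genes, and Actg2, Myh11, Myocd and Tagln had no entry. The pattern searched, 10 bases long, matches on the opposite strand wherever it matches on the first, so that a single search covers both strands, although most single boxes are not palindromes. A complete CArG box was present in 5 of the 29 windows (17.2%), against 488 of all 27025 genes with a window (1.81%). Many known boxes lie outside these windows or depart from the strict form, so the count describes these windows alone. The stretches with a box are shown because the box is the element that serum response factor binds, and its gene, Srf, was itself measured. They are written 5′ to 3′ on the strand of the gene, with the box in capitals.
Cnn2 (chr10:79988499-79988598, plus strand): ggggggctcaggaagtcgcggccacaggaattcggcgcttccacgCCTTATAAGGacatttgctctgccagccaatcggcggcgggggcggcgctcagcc
Myl6 (chr10:128493010-128493104, minus strand): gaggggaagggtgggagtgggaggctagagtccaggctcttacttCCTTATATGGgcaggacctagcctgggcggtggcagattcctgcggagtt
Myl9 (chr2:156775258-156775357, plus strand): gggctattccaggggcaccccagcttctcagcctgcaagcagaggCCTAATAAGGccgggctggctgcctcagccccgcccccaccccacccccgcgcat
Srf (chr17:46556170-46556289, minus strand): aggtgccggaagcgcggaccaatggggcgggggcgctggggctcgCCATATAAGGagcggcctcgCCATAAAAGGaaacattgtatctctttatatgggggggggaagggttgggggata
Vcl (chr14:20929148-20929225, plus strand): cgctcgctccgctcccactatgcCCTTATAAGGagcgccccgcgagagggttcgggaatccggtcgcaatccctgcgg
The box began 56 bases before the start in Cnn2, 50 in Myl6, 161 in Myl9 and 227 in Vcl, and Srf held 2 boxes, at 82 and 62 bases. The age changes of these 5 genes ran from -0.15 (Srf) to 0.27 (Myl9) in males and from -0.22 (Vcl) to 0.17 (Myl9) in females on the log2 scale, and none passed the test described next.

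All values are log2 signals after subtraction of the 75th percentile of the array, so that 0 is the brightness of that percentile and a difference of 1 is a doubling. Brightness also depends on the sequence of a probe, so age changes were read between arrays for the same probe. Where genes are ranked by brightness, the rank is one of signal and was not read as an amount of RNA. AGED and MAT arrays of each sex were compared with limma over all genes tested, and a call needed an adjusted p (Benjamini-Hochberg) under 0.05, with no limit on the fold. The labels do not say that the arrays came from separate litters or cohorts, and p-values measure the spread between these arrays. MAT arrays lay in row 1 of their slide and AGED arrays in row 2, so age and slide row cannot be told apart, and males and females were on separate slides. In males 60.5% to 65.9% of probes were well above background at the MAT age and 52.4% to 61.3% at the AGED age, and in females 64.6% to 68.2% and 59.9% to 63.2%. No spot was saturated, and the brightest spot of the set, for Cnn1, reached 49.6% of the saturation value. Whether signal still rises in step with the amount of RNA at such brightness was not tested.

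None of the 33 contractile genes was called in AGED males, where 1.75% of all genes were called, and none was called in AGED females, where 0.228% were. The median log2 change of the set was -0.02 in males and -0.03 in females, beside a median of 0.00 over all genes in both sexes. In males 15 genes had a positive and 18 a negative change, and in females 14 and 19. The age change did not pass the test of a difference between males and females for any of the 33 genes, with 0.149% of all genes called. At an unadjusted p under 0.05, 3 of the genes were lower in AGED males (Hspb6, Tln1 and Tpm1) and none higher, against 16.3% of all genes in either direction. In females 2 were lower (Hspb6 and Smtn) and none higher, against 10.5%, and for the difference between the sexes the count was 0 against 9.88%.

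**Figure D1:**
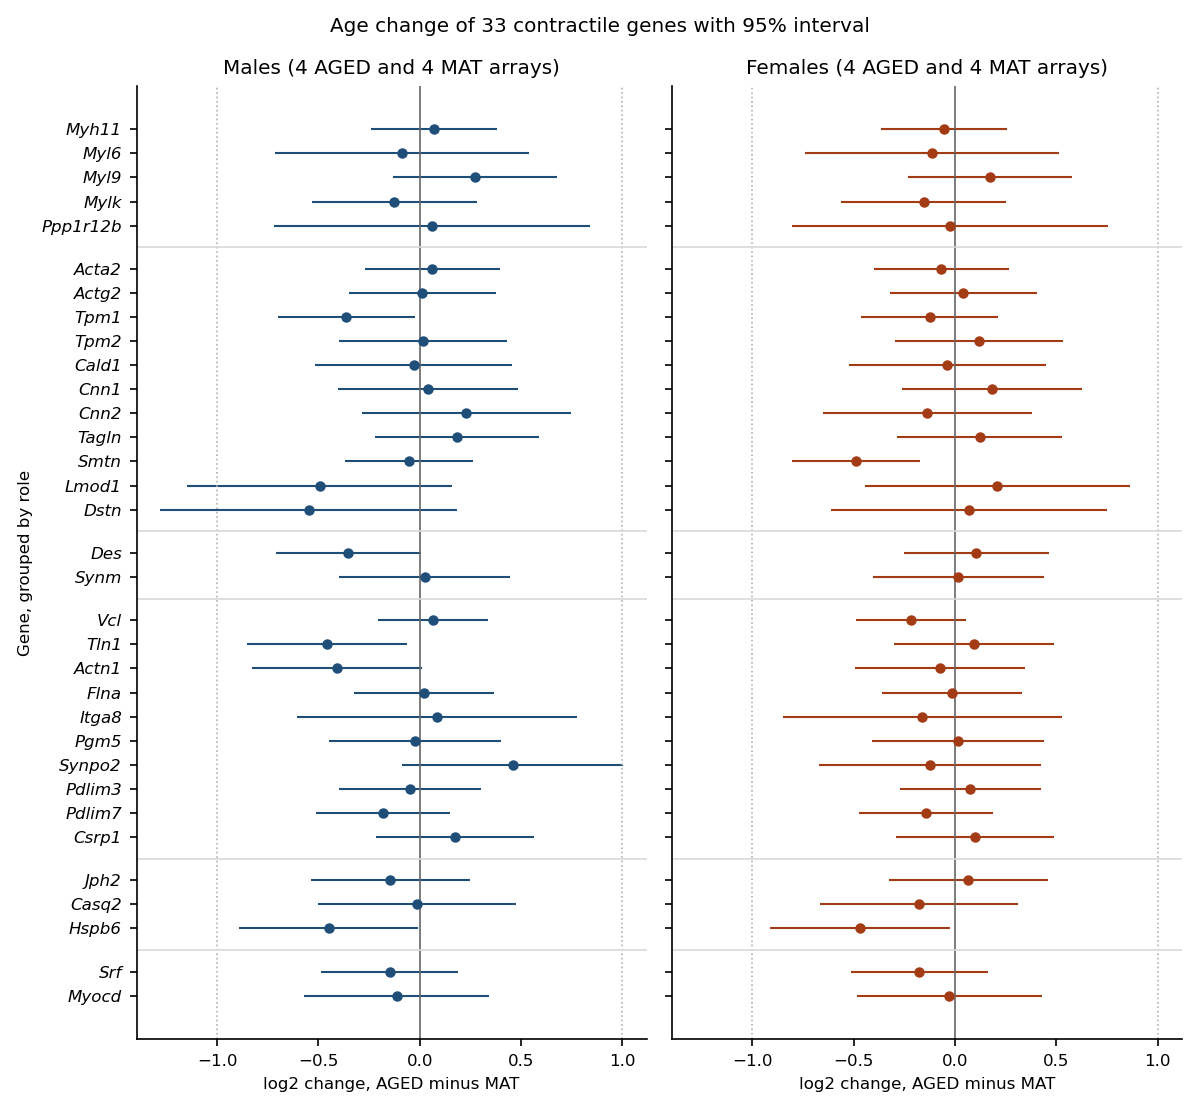
Age change of each of the 33 genes in males (left) and females (right), as the log2 difference between AGED and MAT means with its 95% interval from limma. Genes are grouped by role and dotted lines mark a 2-fold change. Most points lie close to 0 in both sexes, and the intervals of Tpm1, Tln1 and Hspb6 in males and of Smtn and Hspb6 in females lie wholly below 0 before adjustment.

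The intervals describe the brightest probe of each gene as scaled here, and do not bound its change on other probes or under other processing. In males the interval of Pgm5 was -0.45 to 0.40, but another background correction (normexp) gave -0.66. For Tpm1 it was -0.70 to -0.02, but a dimmer probe gave -0.99. For Cald1 it was -0.52 to 0.46, but a dimmer probe gave -0.70. The dimmer Cnn2 probe, at 0.02, lay inside the interval of its gene, -0.29 to 0.75. The 95% interval of the age change stayed within a 2-fold change in either direction for 30 of the 33 genes in males and for all 33 in females, and within 1.5-fold for 19 and 22. The widest lower bound in males was that of Dstn, at -1.28, and the highest upper bound was that of Synpo2, at 1.01. In females the corresponding bounds were those of Hspb6, at -0.91, and Lmod1, at 0.86. A gene with the median standard error of the set (0.19) would have needed a log2 change of 0.79 in males or 1.00 in females to be called. The change was under 0.25 in size for 24 genes in males (72.7%, against 54.9% of all genes) and for 31 in females (93.9%, against 64.9%).

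The myosin group did not pass the test in either sex. Myh11, the smooth muscle myosin heavy chain and the most specific marker of the mature cell, had a change of 0.07 (standard error 0.14, adjusted p = 0.838 from limma) in males and -0.06 (adjusted p = 0.942) in females. Its 95% interval ran from -0.24 to 0.38 in males and from -0.36 to 0.25 in females. The essential light chain Myl6 and the regulatory light chain Myl9, which carries the phosphorylation site, had log2 changes of -0.09 and 0.27 in males and of -0.11 and 0.17 in females. Mylk, the light chain kinase, had changes of -0.13 in males and -0.15 in females.

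Ppp1r12b, a targeting subunit of myosin phosphatase, was the dimmest gene of the set. Its log2 signal was -3.69, -5.16, -3.57 and -4.08 in MAT males and -3.13, -3.99, -5.07 and -4.06 in AGED males. In females it was -3.29, -3.52, -3.74 and -3.55 in MAT and -3.37, -3.78, -3.72 and -3.33 in AGED mice. The groups overlapped in both sexes, 1 MAT and 1 AGED male array were not well above background, and the standard error of the change, 0.36, was the largest of the set.

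Thin filament genes included the brightest of the set. Acta2, the smooth muscle alpha actin, had a log2 signal of 7.86, 7.99, 7.88 and 7.82 in MAT males and of 8.17, 7.85, 7.96 and 7.81 in AGED males. In females the values were 7.77, 7.69, 7.68 and 7.65 in MAT and 7.80, 7.68, 7.09 and 7.95 in AGED mice. MAT arrays of Acta2 lay close together and AGED arrays spread to both sides of them as scaled here. After quantile normalization they read 17.90 to 17.98 in AGED and 18.01 to 18.20 in MAT males. In females they then read 17.94 to 18.13 in AGED and 18.20 to 18.41 in MAT mice. The changes were then -0.17 in males and -0.21 in females (adjusted p = 0.350 and 0.469 from limma). Quantile normalization gives the brightest probes of every array the same few values, so these readings reflect places in the ranking of an array. The share of all genes without overlap under it is not given here, so the gap is no result about Acta2. As scaled here, the change of Acta2 was 0.06 (95% interval -0.27 to 0.40) in males and -0.07 (-0.40 to 0.26) in females. Actg2, the gamma actin of visceral smooth muscle, had changes of 0.01 and 0.04, and since the coding sequences of the actins are nearly alike and probe sequences were not used here, signal shared between actins cannot be told apart.

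Cnn1, a calponin that holds back the myosin ATPase, had a log2 signal of 7.91, 7.76, 7.84 and 8.04 in MAT males and of 7.55, 7.71, 8.41 and 8.05 in AGED males. In females it was 7.76, 7.68, 7.63 and 7.64 in MAT and 7.88, 8.0, 7.25 and 8.31 in AGED mice. Tagln, the actin-binding protein transgelin, gave 7.84, 7.98, 7.87 and 7.78 in males at the MAT age and 8.52, 7.95, 7.82 and 7.92 at the AGED age. In females it gave 7.70, 7.62, 7.64 and 7.63, then 7.87, 7.80, 7.19 and 8.22. For both genes the AGED arrays, as scaled here, covered a wider range than the MAT arrays and overlapped them in each sex. Before scaling, the ranges in females were alike and the AGED arrays lay above the MAT arrays. Cnn1 then ran from 18.285 to 18.413 in AGED and from 18.063 to 18.180 in MAT females. Tagln then ran from 18.219 to 18.276 and from 18.066 to 18.122. In males the groups overlapped before scaling for both genes, with Cnn1 from 16.934 to 18.556 in AGED and from 17.893 to 18.186 in MAT mice. Signals before scaling are not corrected for the brightness of the array. The share of all genes without overlap before scaling is not given here, so these ranges are no result about age. As scaled here, the change of Cnn1 was 0.04 in males and 0.18 in females, and that of Tagln 0.18 and 0.12. Their adjusted p-values from limma ran from 0.656 to 0.941.

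Smtn encodes smoothelin, a structural protein found in contractile and not in proliferating smooth muscle. Its log2 signal in females was 6.97, 6.80, 6.61 and 6.84 in MAT and 6.58, 6.16, 6.09 and 6.43 in AGED mice, with means of 6.80 ± 0.15 (SD, n = 4) and 6.31 ± 0.23 (SD, n = 4). All 4 AGED female arrays lay below all 4 MAT female arrays, with 6.58 against 6.61 at the closest pair. Smtn was the only one of the 33 genes with such a gap in females, where 10.8% of all genes did not overlap in one direction or the other. The change was -0.49 (standard error 0.15), with an unadjusted p of 0.00492 and an adjusted p of 0.254 from limma, and the exact two-sided permutation test gave p = 0.0286, the smallest that 4 arrays against 4 can give. In males Smtn gave 6.85, 6.76, 6.52 and 6.82 in MAT and 6.75, 6.76, 6.87 and 6.34 in AGED mice, and the groups overlapped, with a change of -0.05. The difference between the sexes, 0.43, did not pass the test (adjusted p = 0.519). A dimmer Smtn probe did not show the female difference: it gave 2.66, 2.87, 2.40 and 2.14 in MAT and 2.91, 1.93, 2.60 and 2.79 in AGED females, a change of 0.04.

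Tpm1 encodes a tropomyosin that lies along the actin filament and is spliced into many forms. The brightest of its 5 probes gave 6.02, 6.26, 6.14 and 6.07 in MAT males and 5.47, 5.98, 6.02 and 5.57 in AGED males. All AGED males lay below all MAT males, but the closest arrays read 6.016 and 6.017. This makes Tpm1 the only gene of the set without overlap in males, where 7.97% of all genes did not overlap. The change was -0.36 (standard error 0.16), with an adjusted p of 0.273 from limma and an exact permutation p of 0.0286. In females the same probe gave 6.18, 6.07, 5.95 and 5.67 in MAT and 6.01, 5.59, 5.73 and 6.04 in AGED mice, and the groups overlapped.

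Other probes of Tpm1 gave changes of different size. The second brightest had a change of -0.78 (standard error 0.42) in males and -0.50 in females, with overlapping groups in both sexes. The third brightest gave 4.54, 4.41, 4.68 and 4.21 in MAT males and 3.47, 3.87, 3.78 and 2.75 in AGED males. Every AGED male array lay below every MAT male array for this probe, with a change of -0.99 (standard error 0.32) and an adjusted p of 0.142 from limma with each probe tested on its own. It carries the same transcript accession as the second brightest. In females its change was -0.55, or -0.23 without AGED female replicate 2, and the groups overlapped. The fourth brightest gave 1.57, 1.60, 1.42 and 1.63 in MAT females and 0.96, 1.07, 1.27 and 0.97 in AGED females, again with no overlap and a change of -0.49 (adjusted p = 0.219), while in males its change was -0.22. The dimmest probe had changes of 0.12 in males and 0.18 in females. The accessions of the 5 probes name 4 different Tpm1 transcripts, so the probes need not measure the same mixture of forms.

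Among the other thin filament genes, Tpm2, the beta tropomyosin of muscle, and Cald1, the actin-binding caldesmon, had changes between -0.04 and 0.12 in both sexes. A second Cald1 probe differed from the first in males, with a change of -0.70 (standard error 0.23, adjusted p = 0.151 from limma) and overlapping groups. Cnn2, the calponin of less specialized cells, had changes of 0.23 in males and -0.14 in females. Lmod1, leiomodin, which starts new actin filaments in smooth muscle, was among the 3 dimmest genes. Its log2 signal was 0.69, 0.74, 0.69 and 0.15 in MAT males, -0.21 to 0.55 on 3 AGED male arrays and -0.46 on the last, and in females it was 0.91, 0.62, 0.55 and -0.64 in MAT and 0.88, 0.21, 0.56 and 0.61 in AGED mice. Neither sex separated, with changes of -0.49 (standard error 0.31) and 0.21 (standard error 0.31). Without MAT female replicate 4 the female change turned to -0.13. The male change was -0.65 without AGED male replicate 1, -0.32 without AGED male replicate 4 and -0.09 with normexp background correction. Dstn, the actin-severing protein destrin, had the lowest change of the set in males, -0.55 (standard error 0.34), which rests on 1 array. AGED male replicate 4 read 4.65 against 6.24 to 6.35 on the other 3, and without it the change was -0.13. MAT male replicate 4 was left out of the fit of Dstn by its outlier flag, so n = 3 there.

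Neither intermediate filament gene passed the test. Des, desmin, which links dense bodies to one another, gave 5.24, 5.15, 4.96 and 5.28 in MAT males and 4.93, 5.09, 4.78 and 4.43 in AGED males. The groups overlapped, and the change of -0.35 (standard error 0.17) had an adjusted p of 0.315 from limma. Over 30 settings it ran from -0.44 to -0.22, the last without AGED male replicate 4. In females the change of Des was 0.10. Synm, synemin, which joins desmin to the membrane, had changes of 0.02 and 0.01, and its 4 dimmer probes had changes of -0.28 to 0.01 in males.

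The 10 anchoring genes carry force from the filaments to the membrane and the matrix. Tln1, talin, which couples integrins to actin, had the lowest unadjusted p of the set in males, 0.0263. It gave 5.88, 6.26, 6.04 and 5.95 in MAT males and 4.99, 5.97, 5.63 and 5.72 in AGED males, so that 1 AGED array lay within the MAT range and 3 lay below it. The change of -0.46 (standard error 0.18) had an adjusted p of 0.236 from limma and an exact two-sided permutation p of 0.0857, and without AGED male replicate 1 the change was -0.26. A much dimmer Tln1 probe did not show the difference, with changes of 0.10 in males and 0.49 in females, and the mean of both probes had a change of -0.18 in males. In females the brighter probe gave 5.87, 5.91, 5.87 and 5.69 in MAT and 6.13, 5.82, 5.63 and 6.13 in AGED mice, with a change of 0.09.

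Actn1, an alpha-actinin that crosslinks actin at dense bodies, had a change of -0.41 (standard error 0.20, adjusted p = 0.318) in males and -0.08 in females. The male change was -0.27 without AGED male replicate 1, which read 1.01 against 1.54 to 1.62 on the other 3, and -0.28 without MAT male replicate 2. Without MAT male replicate 4 it was -0.54. Synpo2, an actin-binding protein of the muscle Z-line and dense body, had the highest change of the set, 0.46 (standard error 0.26) in males. That value turned on MAT male replicate 2, which read 4.25 against 5.47 to 5.63 on the other MAT male arrays, and without it the change was 0.14. Vcl, vinculin, the partner of talin at the plaque, had changes of 0.06 and -0.22. Flna (filamin A), Itga8 (the alpha subunit of an integrin of smooth muscle), Pgm5 (a protein of adhesion sites also called aciculin), Pdlim3 and Pdlim7 (adaptors with PDZ and LIM domains) and Csrp1 (a LIM protein of smooth muscle) had changes between -0.18 and 0.18 in both sexes. Itga8 was the least precise of them, with a standard error of 0.32, and over 30 settings its male change ran from -0.66 to 0.47.

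In the processed signal of males, a dimmer probe of Pgm5 separated the groups where the brightest did not. The brightest gave 6.40, 6.62, 6.44 and 6.39 in MAT males and 7.05, 6.45, 6.46 and 5.78 in AGED males. The second gave 5.40, 5.94, 5.58 and 5.42 in MAT males and 4.23, 5.23, 5.40 and 5.39 in AGED males, all AGED arrays below all MAT arrays, although the closest pair read 5.40 on both sides at this precision. The change was -0.52 (standard error 0.23), with an adjusted p of 0.279 from limma, and without AGED male replicate 1 it was -0.25. AGED male replicate 1 was the highest AGED male array for one probe and the lowest for the other. The third probe had a change of 0.13. With normexp background correction the brightest probe separated the males as well, at 5.12 to 6.14 in AGED and 6.38 to 6.60 in MAT mice.

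The calcium store and relaxation genes were Jph2, junctophilin, which holds the store close to the membrane, Casq2, the calsequestrin that binds calcium in the store, and Hspb6, the small heat shock protein HSP20, whose phosphorylation accompanies relaxation. Jph2 was among the dimmest. It gave -0.52, -0.17, -0.43 and -0.08 in MAT males and -0.34, -0.33, -0.48 and -0.64 in AGED males. In females it gave -0.01, -0.15, -0.23 and -0.62 in MAT and 0.24, -0.58, -0.39 and -0.02 in AGED mice, and the groups overlapped in both sexes. Its changes were -0.15 and 0.07, and those of Casq2 were -0.01 and -0.18.

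Hspb6 was the one gene of the set with an unadjusted p under 0.05 from limma in both sexes, and it was lower in both. Of all genes, 16.3% were under this limit in males and 10.5% in females, in either direction. The share under it in both sexes is not given here, so the count is no result about the set. In males it gave 5.33, 5.26, 5.03 and 5.28 in MAT and 4.27, 5.24, 4.74 and 4.86 in AGED mice. In females it gave 5.55, 5.33, 5.08 and 5.53 in MAT and 4.91, 4.67, 5.41 and 4.62 in AGED mice. In each sex 3 of 4 AGED arrays lay below all MAT arrays and 1 lay within their range. The change was -0.45 (standard error 0.21, adjusted p = 0.300) in males and -0.47 (adjusted p = 0.441) in females from limma, and the exact two-sided permutation p was 0.0571 and 0.0857. Without AGED male replicate 1 the change in males was -0.28, and without AGED female replicate 3 that in females was -0.64 (adjusted p = 0.185). The difference between the sexes was 0.02, with a 95% interval from -0.61 to 0.65.

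**Figure D2:**
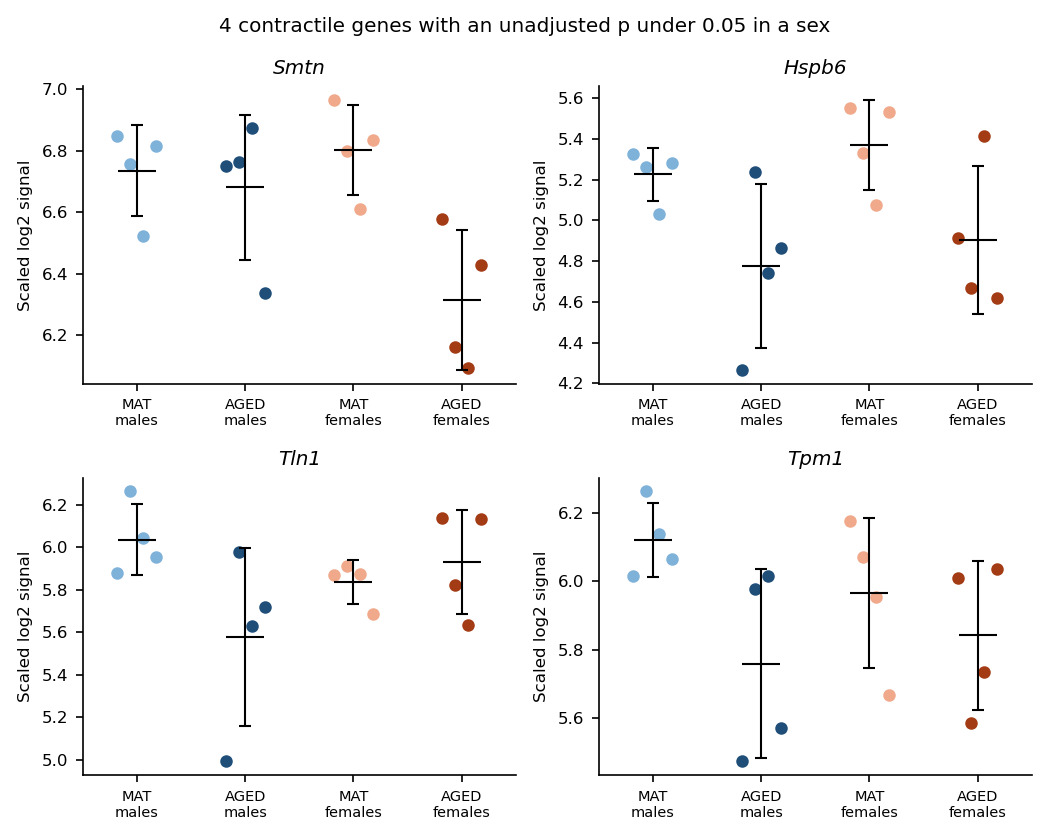
Scaled log2 signal of Smtn, Hspb6, Tln1 and Tpm1 on each array, with the mean and SD of each group of 4. All AGED female arrays lie below all MAT female arrays for Smtn (6.58 against 6.61 at the closest), and for Hspb6 a single AGED array of each sex, at 5.24 and 5.41, lies within the MAT range.

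Both transcription factors had small negative changes that did not pass the test. Srf, serum response factor, had changes of -0.15 in males and -0.18 in females, and Myocd, myocardin, its muscle partner, had changes of -0.11 and -0.03. The 95% intervals of these 4 values ran from -0.57 to 0.43 at their widest.

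Levels in males and females were compared within each age as well, with no test, since sex and slide cannot be told apart. In MAT mice 8 of the 33 genes were higher on all male arrays than on all female arrays (Acta2, Actg2, Tagln, Myl9, Flna, Pgm5, Csrp1 and Dstn), where 14.5% of all genes were. The differences were small, from 0.17 for Pgm5 to 0.43 for Dstn on the log2 scale. Cnn2 was lower on all MAT male arrays, by 0.48, where 4.42% of all genes were. In AGED mice none of the 33 genes was higher on all male arrays, against 8.77% of all genes, and Actn1 was lower on all of them, by 0.46, against 4.81%.

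AGED arrays were more dispersed than MAT arrays for most of the contractile genes, as for most genes. The SD over the 4 arrays was wider in AGED than in MAT mice for 25 of 33 genes in males (75.8%, against 70.1% of all genes) and for 26 in females (78.8%, against 74.1%). The median SD of the set was 0.29 in AGED and 0.17 in MAT males, beside 0.36 and 0.23 over all genes, and 0.30 in AGED and 0.115 in MAT females, beside 0.24 and 0.15. After quantile normalization the SD was wider in AGED mice for 23 genes in males (69.7%, now under the 71.9% of all genes) and 27 in females (81.8%, against 73.6%), and the median SD of the set in AGED females was 0.195. AGED male replicate 4 gave the lowest value of its group for 20 of the 33 genes, and for 17 after quantile normalization. In AGED females the array with most of the lowest values depended on the scaling, with 16 on replicate 3 and 14 on replicate 2 as scaled here, and 6 and 24 after quantile normalization.

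For the brightest genes, the level before scaling and the 75th percentile can be read side by side. Acta2, Actg2, Cnn1, Myl6, Myl9 and Tagln were in the top 0.1% of genes by brightness, and before scaling their mean log2 signal ran from 17.48 to 18.14 in AGED males, 17.96 to 18.01 in MAT males, 18.10 to 18.21 in AGED females and 17.999 to 18.118 in MAT females. The 75th percentile of the arrays ran from 9.39 (AGED male replicate 1) to 11.06 (AGED female replicate 3). After scaling, AGED male replicate 1 had the highest mean of these 6 genes (8.10) and AGED female replicate 3 the lowest (7.08). With these 2 arrays left out, an alternative chosen after seeing the data, the SD was wider in AGED mice for 20 genes in males (60.6%, against 53.7% of all genes) and 26 in females (78.8%, against 69.4%), and no contractile gene was called. The part of the scaling in the spread was not tested. AGED female replicates 3 and 4 had percentiles of 11.06 and 10.04, and means of the 6 genes before scaling of 18.14 and 18.10. AGED male replicate 1 was low in both, at 9.39 and 17.48. Whether the signal of these 6 genes follows the amount of RNA in full was not tested, and their changes and intervals carry that limit.

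**Figure D3:**
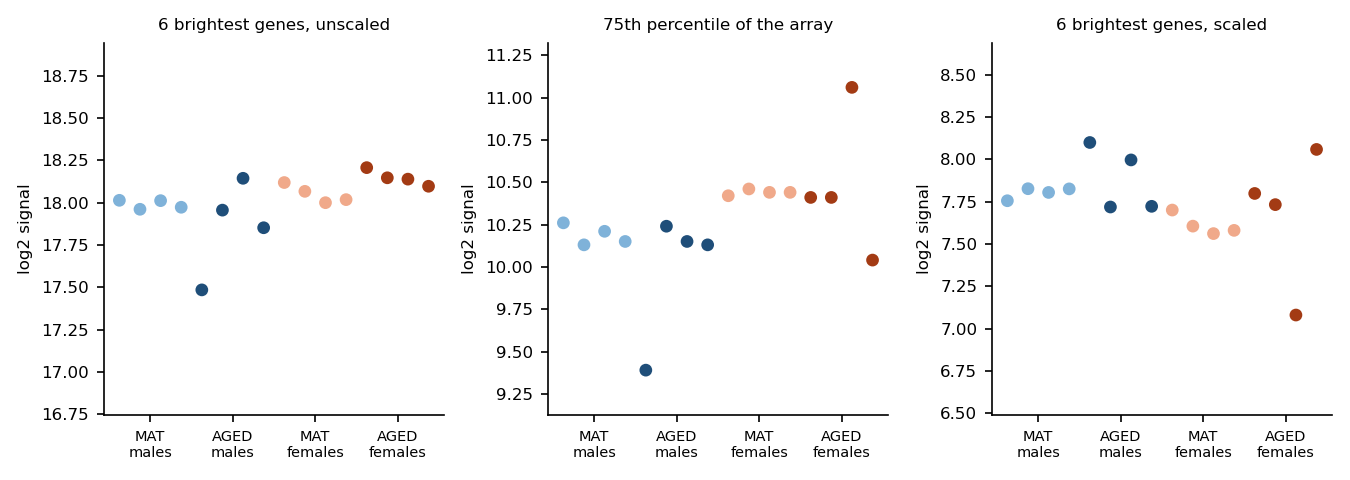
Mean log2 signal of the 6 brightest genes before scaling (left), the 75th percentile of each array (middle) and the mean of the 6 genes after scaling (right), with 4 arrays per group in replicate order and the same span on each vertical axis. AGED female replicate 3 has the highest percentile (11.06) and the lowest scaled mean (7.08).

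Repeated spots gave a direct measure of the error within an array. The probes of Acta2 and Des were each printed on 10 spots, and the other 31 genes were read from 1 spot per array. Among the unflagged spots of Acta2 the SD of the log2 signal on an array was 0.03 to 0.07 in MAT females, 0.05 to 0.14 in AGED females, 0.06 to 0.10 in MAT males and 0.08 to 0.30 in AGED males. For Des the SD was 0.03 to 0.05, 0.02 to 0.10, 0.06 to 0.35 and 0.16 to 0.59 in the same order. For both probes the highest SD between spots was thus on an AGED male array, where it reached the size of the differences between groups. Not every AGED male array stood out. Acta2 had an SD of 0.08 on AGED male replicate 2, and Des had 0.35 on MAT male replicate 2. In the raw median signal, before the background and trend corrections of the scanner software, the SD on AGED male arrays was 0.13 to 0.60 for Acta2 and 0.15 to 1.11 for Des. The middle 50% of the log2 ratios of processed to raw signal over the 33 genes spanned 0.228 to 0.688 log2 units on AGED male arrays and 0.039 to 0.235 on MAT male arrays. In females the span was 0.069 to 0.181 at the AGED and 0.047 to 0.07 at the MAT age. Over all probes it was much wider and more alike, at 0.958 to 1.38 on AGED male, 0.875 to 1.02 on MAT male, 0.673 to 0.96 on AGED female and 0.787 to 0.852 on MAT female arrays. The part of this unevenness in the spread of the single-spot genes, and in the values of AGED males, was not tested.

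**Figure D4:**
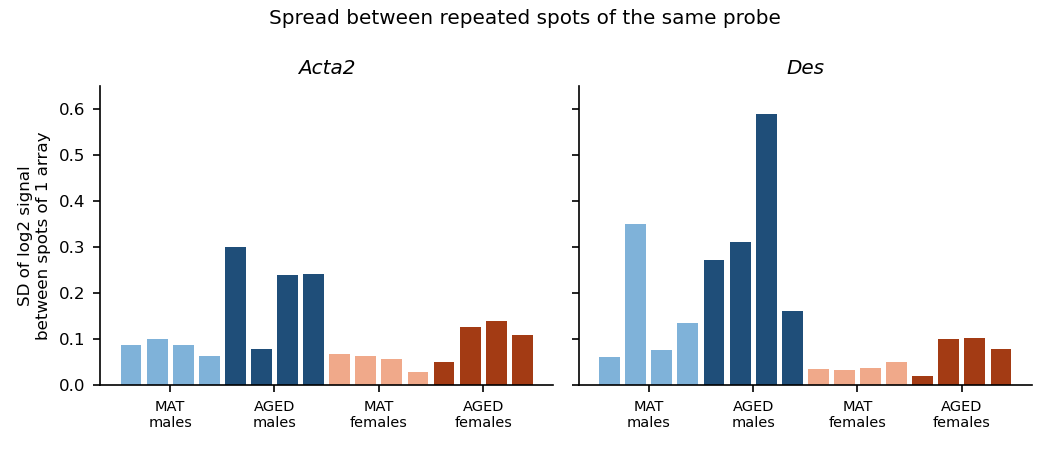
SD of the log2 processed signal between the repeated spots of the Acta2 probe (left) and the Des probe (right) on each of the 16 arrays, in replicate order within each group. The bars of AGED males reach 0.30 for Acta2 and 0.59 for Des, and those of MAT females stay at 0.07 or below.

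Other genes of smooth muscle contraction, in 5 lists, were read beside the set. In the list of light chain phosphorylation and its regulators, 1 of 24 genes was called lower in males and none in females (1.75% and 0.228% of all genes were called), with medians of -0.08 and -0.05. The 26 tested filament partners are given by their medians alone, -0.09 in males and -0.01 in females. In the list of cofactors of serum response factor and related factors, 1 of 17 was called lower in males and none in females, beside the same shares of all genes, with medians of 0.14 and 0.02. None of the 22 genes of adhesion and the dystrophin complex was called in either sex (medians -0.10 and -0.08), and neither was any of the 14 tested genes of the calcium store (medians -0.17 and -0.15), where 9 changes were negative in males and 12 in females, beside 13360 and 13495 of all 26781 genes.

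The called genes of the phosphorylation and cofactor lists were Ppp1r14a and Mef2d. Ppp1r14a encodes CPI-17, which inhibits myosin phosphatase when protein kinase C has phosphorylated it and so makes the filaments more sensitive to calcium. Its log2 signal was 4.20, 4.06, 4.09 and 4.19 in MAT males and 2.84, 3.05, 3.29 and 2.72 in AGED males. The groups did not overlap, with 3.29 against 4.06 at the closest pair. The log2 signal fell by 1.16 (standard error 0.12) in AGED males, with an adjusted p of 0.000518 from limma and an exact permutation p of 0.0286. In females Ppp1r14a gave 4.11, 4.08, 3.95 and 3.85 in MAT and 3.80, 3.68, 3.90 and 3.80 in AGED mice, with overlapping groups and a change of -0.20 (adjusted p = 0.610). The test of the difference between the sexes gave an adjusted p of 0.0502, just outside the threshold.

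Mef2d, a MADS-box transcription factor of muscle, gave -2.12, -0.97, -1.58 and -1.38 in MAT males and -2.67, -2.25, -2.57 and -2.11 in AGED males. The highest AGED array of Mef2d reached just above the lowest MAT array, and the change was -0.89 (standard error 0.20, adjusted p = 0.0403, exact permutation p = 0.0571). In females the change of Mef2d was 0.04, and the difference between the sexes did not pass the test (adjusted p = 0.258 from limma). When each sex was fitted alone, which is also the fit within each slide, the adjusted p in males was 0.0700 for Ppp1r14a and 0.285 for Mef2d, so that neither was called. The call of Mef2d was lost under 17 of 29 alternatives.

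**Figure D5:**
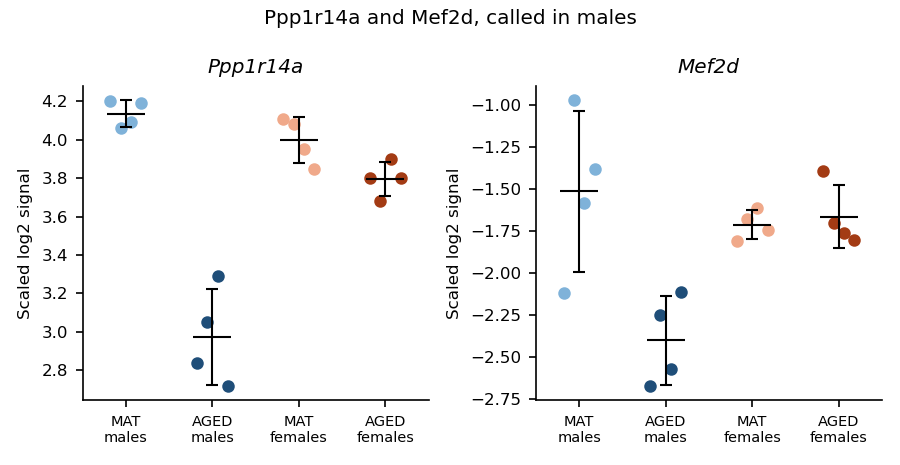
Scaled log2 signal of Ppp1r14a and Mef2d on each array, with the mean and SD of each group of 4. AGED males lie apart from the other groups for Ppp1r14a, at 2.72 to 3.29 against 3.68 or more elsewhere, and the AGED male values of Mef2d (-2.67 to -2.11) just reach the lowest MAT male array (-2.12).

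Markers of the cell types in the sample were read for what could move beside the muscle genes. The 7 detrusor markers, which belong to the set, had a mean log2 signal of 6.36 to 6.51 in MAT males, 6.23 to 6.61 in AGED males, 6.18 to 6.40 in MAT females and 5.97 to 6.59 in AGED females, and all were above background on every array. None of the 12 marker lists held a called gene in either sex. The 9 fibroblast and matrix markers had a mean of 5.02 to 5.18 in MAT males and 4.39 to 5.09 in AGED males, with 4 of them lower at an unadjusted p under 0.05, where 8.49% of all genes were, and the 15 urothelial markers had a mean of 4.19 to 4.39 in MAT females and 4.36 to 4.67 in AGED females. Macrophage markers had a mean of 1.98 to 2.11 in MAT males, 2.05 to 3.28 in AGED males, 1.74 to 2.04 in MAT females and 2.16 to 2.91 in AGED females. AGED male replicate 1 stood apart in macrophage and T cell markers. Its macrophage mean was 3.28, where the other 3 arrays of its group had 2.05 to 2.13. Its T cell mean was 1.1, where they had -1.56 to -0.72 and MAT males had -1.57 to -1.13. In B and plasma cell markers it did not stand apart, with a mean of -1.07, where they had -3.41 to -1.03 and MAT males had -4.76 to -1.05. The median changes in males and females were 0.04 and 0.04 for the detrusor list, -0.29 and -0.06 for fibroblast and matrix, 0.14 and 0.26 for urothelium, 0.38 and 0.45 for macrophage, 0.74 and -0.17 for T cell, 0.79 and -0.87 for B and plasma cell, and -0.30 and -0.36 for nerve and Schwann cell. They were -0.44 and -0.98 for adipocyte, -0.01 and -0.09 for endothelium, -0.18 and -0.12 for interstitial cell and pericyte, -0.22 and 0.00 for skeletal muscle and -0.22 and -0.31 for blood. The part of these other cell types in the values of the contractile genes was not tested.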

How the data were processed

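Total RNA of 16 mouse bladders was labelled with Cy3 and hybridized to 1-colour Agilent arrays. The authors deposited spot intensity values that were already background-subtracted and detrended within the array by Feature Extraction (version 9.1 in the submitters' processing notes, 10.7.3.1 in the file headers), and the raw intensity with its local background and flags. They also deposited a table of log2 values, which held the log2 processed signal after a shift for each array, with every probe centred on its own median. Here it served as an alternative. To scale an array, the 75th percentile of its spots other than controls was taken from the log2 processed signal. Flagged spots were left out (399 probe values) and repeated spots averaged. Of 55681 probes, 26582 were named by matching their RefSeq or Ensembl accession to the gene table of GRCm38.p6, which was used for names and promoters alone. The others kept the identifier of the array design, and each such identifier was counted as a gene. Probes well above background on at least 4 arrays were kept (36974), and a gene was represented by its brightest kept probe.

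A model of 4 group means was fitted with limma 3.58.1 in R 4.3.3 over all 16 arrays (12 residual degrees of freedom), with Benjamini-Hochberg adjustment over 26781 genes. Intervals are 95% intervals of that fit, whose precision the 4 arrays of a group limit. Exact permutation tests were two-sided. The procedure was tested on simulated arrays with known changes in males. It called 76 of 100 genes with a log2 change of 1.5 in size and 33 of 100 with 0.75. A gene with a change of the smaller size was thus more often missed than called. By rule, values per array are given for genes that were called or whose groups did not overlap in a sex, for the 3 brightest and 3 dimmest genes, for genes with probes of opposite direction of which 1 did not overlap, and for called genes of the wider lists, of which 1 result is not reported here. Values of Hspb6, Tln1, Des, Dstn, Synpo2, Pln, Atp2a2, Sln, Lims1, Pdlim1, Orai1 and Prkca, and of the dimmer Cald1, Tln1 and Synm probes, were added after they were seen. The genes, the marker lists and the wider lists were chosen with earlier results of these data known.

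Alternatives were quantile and median scaling, normexp background correction (offset 50) on the raw median signal, the log2 table of the authors, stricter and looser filters on dim probes, the mean of a gene's probes or each probe alone, array weights, a fit of each sex alone, a variance trend, a 2-fold limit, no adjustment, the methods' t-test, a replicate block and leaving out single arrays. Leaving out 2 arrays together and scaling on the smooth muscle markers were added after seeing the data. A slide block could not be fitted beside the groups, since each slide held 1 sex, and the fit of each sex alone takes its place.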

Additional observations from a re-analysis of the deposited data

Results flagged for a closer look

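In groups of 4 arrays, a value was marked when its gap to the nearest other array took up more of the range of its group than Dixon's test allows, which chance does in about 1 of 20 groups. Of 132 groups of values of the contractile genes, 11 were marked (8.33%), and 5 of these lay on MAT male replicate 2. On that array Cnn2 read 1.76 against 2.49 to 2.62 on the other MAT male arrays (gap over range 0.847), Synm 5.22 against 6.07 to 6.11 (0.954), Tpm2 6.55 against 7.0 to 7.09 (0.839) and Synpo2 4.25 against 5.47 to 5.63 (0.885). Srf read higher there, 3.84 against 3.16 to 3.24 (0.888). The SD between repeated spots of Des on this array, 0.35, was the highest of the MAT arrays.

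In AGED males Dstn read 4.65 on replicate 4 against 6.24 to 6.35 (0.935), and Actn1 read 1.01 on replicate 1 against 1.54 to 1.62 (0.868). Lmod1 read 0.15 on MAT male replicate 4 against 0.69 to 0.74 (0.918). In females Actn1 read 1.74 on AGED replicate 2 against 1.93 to 1.95 (0.93), Itga8 read 1.46 on MAT replicate 2 against 1.91 to 1.94 (0.932) and Cald1 read 4.38 on MAT replicate 1 against 4.13 to 4.17 (0.85). Among the measures of whole arrays, the log2 75th percentile of AGED male replicate 1 was 9.39, with 10.13 to 10.24 on the remaining arrays of its group (0.873), and the median signal of MAT female replicate 3 was 94.4 against 98.3 to 98.7 (0.904).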

How the results depend on the processing

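The count of called contractile genes stayed at 0 in males, females and the difference between the sexes under nearly every alternative. With no adjustment it was 3 in males and 2 in females. Under normexp background correction 1 gene, Pgm5, was called lower in AGED males, with a change of -0.66 (adjusted p = 0.0438 from limma) against -0.02 with the processed signal of the same probe, and the cause was not tested. The methods' t-test called 0 of the genes at an unadjusted p under 0.05 with a 2-fold limit, and 0 after Benjamini-Hochberg adjustment. The median change of the set ran from -0.11 to 0.09 in males and from -0.09 to 0.04 in females over all settings, and leaving out single arrays gave -0.09 to 0.06 and -0.09 to 0.04. Normexp shifted the median of all genes in males to 0.12 and scaling on the smooth muscle markers, chosen after seeing the data, shifted it to 0.11, with medians of the set of 0.05 and 0.09. Over 30 settings 10 of the 33 genes kept the sign of their change in males and 11 in females. Hspb6 in both sexes, Smtn in females and Tln1 and Tpm1 in males were among them. Their changes ran from -0.60 to -0.17 (adjusted p 0.135 to 0.722) for Hspb6 in males, -0.64 to -0.37 (0.056 to 0.945) for Hspb6 in females, -0.59 to -0.22 (0.0711 to 0.649) for Smtn, -0.59 to -0.18 (0.107 to 0.629) for Tln1 and -0.45 to -0.24 (0.188 to 0.620) for Tpm1. The smallest came from normexp (Hspb6 in males) and the mean of the kept probes (Smtn and Tln1). Among the called genes of the wider lists, Ppp1r14a was called under 28 of 29 alternatives, with changes of -1.75 (normexp) to -1.05 (scaling on the smooth muscle markers). Mef2d ranged from -1.09 to -0.51 (normexp), and its call was lost without 11 of the 16 single arrays, all but AGED female replicates 1 and 4, AGED male replicates 2 and 4 and MAT male replicate 1. The replicate numbers did not pair the arrays: same-numbered arrays had correlations of deviations from -0.14 to 0.07 in males and from -0.15 to 0.05 in females, and 1 of 4 arrays in each sex correlated best with its own number. With the replicate block the count of called contractile genes was 0 in both sexes and for the difference, and the adjusted p was 0.00295 for Ppp1r14a and 0.0584 for Mef2d. Single spots limit the other 31 genes, since the spots of 1 probe differed by an SD of up to 0.59 on an array, and Ppp1r12b was near background.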

Other observations

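Phospholamban, encoded by Pln, which holds back the calcium pump of the store, was the gene of the calcium store list with the lowest unadjusted p in females. It was chosen after its values were seen. Its log2 signal was -2.69, -3.06, -3.14 and -2.59 in MAT females and -3.84, -3.45, -3.75 and -4.02 in AGED females, and -3.45, -3.42, -3.33 and -3.23 in MAT males and -3.91, -3.35, -4.69 and -4.34 in AGED males. The female groups did not overlap, which held for 10.8% of all genes in females, and the male groups did. Its change in females was -0.90 (limma standard error 0.23, adjusted p = 0.169) and in males -0.72 (standard error 0.23, adjusted p = 0.144), so it was not called in either sex. Atp2a2, the calcium pump itself, had changes of -0.37 in females, again with no overlap, and -0.28 in males (adjusted p = 0.524 and 0.476 from limma). At an unadjusted p under 0.05 from limma, 4 of the 14 tested genes of this list were lower in AGED males and 1, Sln, was higher. Of all 26781 genes, 2274 were lower and 2093 higher by the same measure. Sln, sarcolipin, another inhibitor of the pump, was not well above background on any MAT male array and was so on 2 of 4 AGED male arrays.

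Among the genes of the wider lists that were not called, 4 had an adjusted p under 0.1 in males from limma. The share of all genes under this looser limit is not given here, so the count is no result about the lists. Lims1, an adaptor of integrin adhesions, had a change of -0.69 (adjusted p = 0.0596 from limma), with no overlap in either sex. Of all genes, 7.97% did not overlap in males and 10.8% in females. Pdlim1, a PDZ and LIM adaptor, had a positive change of 0.62 (adjusted p = 0.0800 from limma). Orai1, a calcium channel that opens when the store is empty, had a change of -0.56 (adjusted p = 0.0888), and Prkca, a protein kinase C, had a change of -0.69 (adjusted p = 0.0962). In females the changes of these 4 genes ran from -0.14 to 0.07.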
